A study of Mus musculus with 6 samples.

Results

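The interleukins and the chains of their receptors were examined in tumors grown from 4T1 cells, a mouse mammary carcinoma line, in BALB/c mice. The genes were taken by name: every gene of the deposited table whose symbol begins with Il and a digit was included, which gave 71 of 16763 genes. They comprised 31 ligands, 33 receptor chains, 6 inhibitors or decoy receptors and 1 enzyme, Il4i1. Of these, 47 had enough reads to be tested, and the other 24 are given as counts.

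RNA from whole tumors had been sequenced in 3 libraries from mice given a DMDD liposome and 3 from a model group with the same tumors and no stated treatment. DMDD is named by that abbreviation alone, and neither its dose and timing nor the age of the mice is stated. The mice were allotted to groups at random and the labels list them as male, while the sample descriptions say rat where the organism field says mouse. Nothing says that the 3 libraries of a group came from separate animals, so the p-values below measure the spread between these libraries, which may be technical.

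Totals ran from 13037500 to 15616840 assigned reads per library, and 3 reads corresponded to 0.193 to 0.230 CPM, the read count scaled to a common library size. Epithelial markers of the tumor cells (Epcam, keratins and others) summed to 2970 to 3718 CPM in the DMDD liposome libraries and 3250 to 5910 CPM in the model libraries. Model replicate 2 stood apart in skin genes: 7 epidermal keratinocyte markers summed to 216 CPM there, against 3.76 to 4.46 CPM in the other 5 libraries. DMDD liposome replicates 1 and 3 were the highest in skeletal muscle markers. These summed to 96.8, 9.59 and 221.5 CPM in DMDD liposome replicates 1 to 3, against 26.7, 22.6 and 17.99 CPM in model replicates 1 to 3. The part of muscle tissue in the values below was not tested. Mast cell markers also differed between libraries and are given below.

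Interleukins are secreted proteins through which immune, epithelial and tumor cells signal to each other. Each binds a receptor made of chains that are often shared within a family: IL-1 type receptors signal through the adaptor MyD88 to NF-kB, whereas most other families signal through JAK kinases and STAT factors. In tumors they are known for directing which immune cells enter and how those cells act.

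No interleukin or receptor gene passed the adjusted threshold of 0.05. With edgeR's quasi-likelihood test and Benjamini-Hochberg adjustment over all genes, 0 of 47 passed, and over all genes the count was 0 of 12891 (0%). DESeq2 called 0 of 55 of them, against 59 of 14461 genes with an adjusted p (0.408%), and the authors' deposited table called 0 of 71, against 58 of 16763 genes (0.346%). At an unadjusted p under 0.05 there were 6 of 47 (12.8%), where the share over all genes tested was 7.65%. Il33, Il27ra and Il12rb2 were the 3 on the higher side (6.38%, against 4.34% of all genes), and Il24, Il1rap and Il23a the 3 on the lower side (6.38%, against 3.31% of all genes). Il12rb2, with 13, 5 and 6 reads in model replicates 1 to 3, had enough reads only through the DMDD liposome libraries, where it was higher. Its place among the 6 is therefore a description.

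The groups were also set side by side by whether their 3 libraries overlapped in CPM. Every DMDD liposome library exceeded every model library for 4 of 47 genes, namely Il33, Il27ra, Il27 and Il10rb (8.51%, against 7.21% of all genes). They lay below for 1, Il1f9 (2.13%, against 5.66% of all genes). In either direction that was 5 of 47 (10.6%, against 12.9%), a share near that of all genes. Il27 had 8, 12 and 9 reads in model replicates 1 to 3, and Il1f9 had 11, 18 and 9 in DMDD liposome replicates 1 to 3. Each had enough reads to be tested only through the group where it was higher, so their places in these counts are a description. Counted over all 71, untested genes included, 4 lay above (5.63%, against 6.59% of all genes in the table) and 4 below (5.63%, against 5.11%), the further 3 being Il12b, Il13ra2 and Il17rb.

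Ligands and receptor chains were set side by side by their medians. The median log2 fold change of DMDD liposome over model was -0.30 for the 16 tested ligands, of which 10 were negative. It was -0.03 for the 28 tested receptor chains, of which 15 were negative. All 47 had a median of -0.05, beside 0.01 over all genes tested. That median was 0.08 without model replicate 3 and -0.17 without DMDD liposome replicate 3, so its sign rests on 1 library. Summed over every ligand gene, the level per transcript length (FPKM) came to 128, 143 and 156 in DMDD liposome replicates 1 to 3, against 162, 188 and 395 in model replicates 1 to 3. Receptor chains summed to 248, 230 and 262 FPKM in DMDD liposome replicates 1 to 3, against 225, 241 and 338 FPKM in model replicates 1 to 3. Model replicate 3 was the highest library in both sums. Without Il24, the ligands summed to 125, 138 and 146 FPKM in DMDD liposome replicates 1 to 3, against 159, 173 and 210 FPKM in model replicates 1 to 3. Il1b and Il23a made up most of each of these sums, and the groups overlapped for both. Il1b had 42.5 to 51.8 FPKM in DMDD liposome and 50.2 to 87.1 FPKM in model libraries. Il23a had 33.7 to 37.9 FPKM in DMDD liposome and 37.8 to 63.2 FPKM in model libraries.

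**Figure D1:**
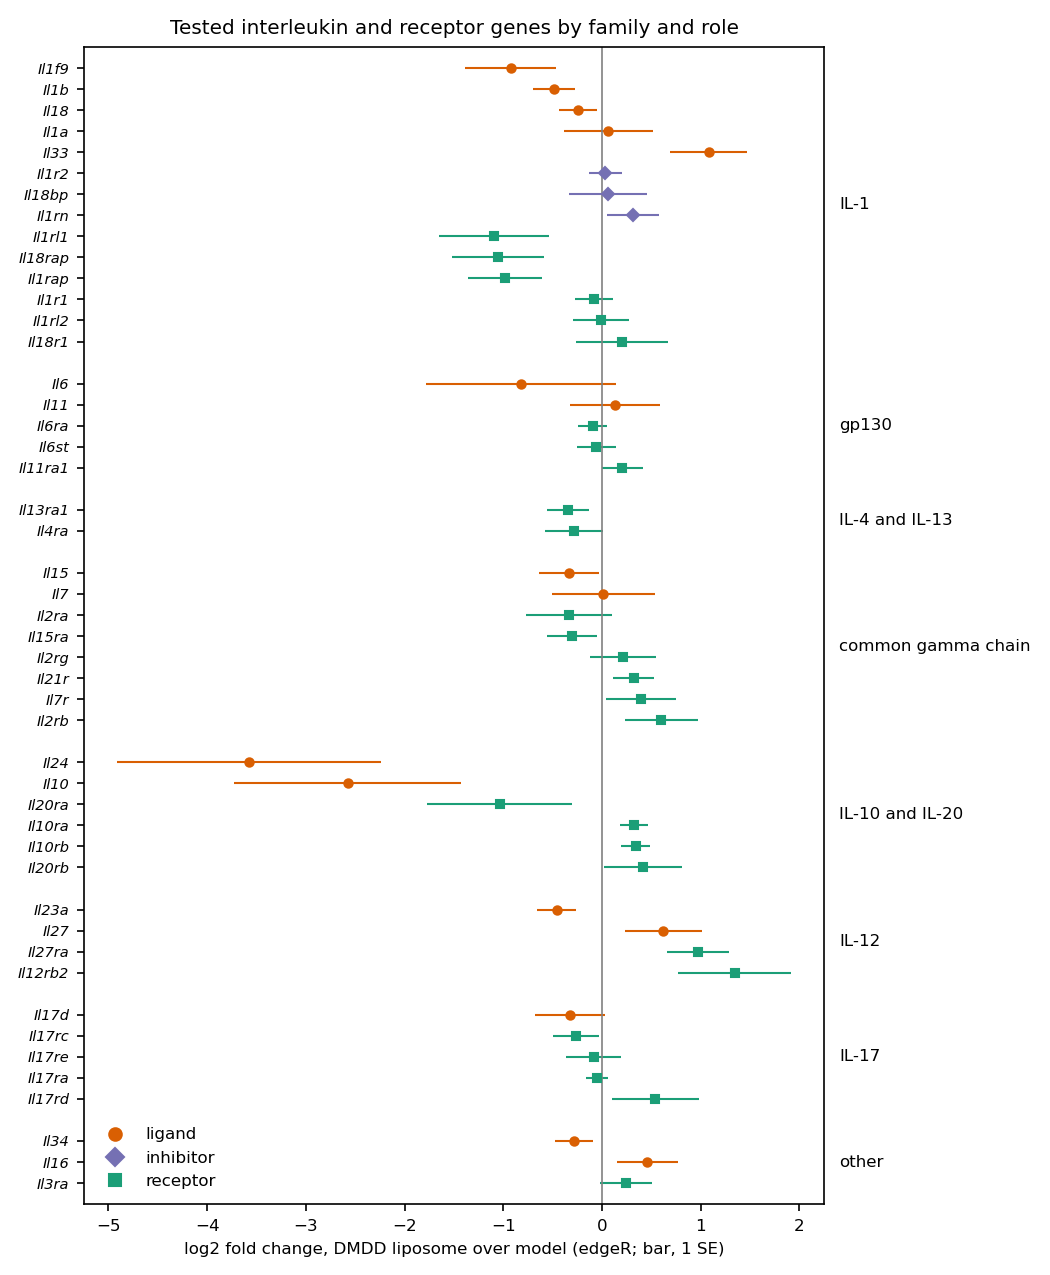
Log2 fold change of DMDD liposome over model (horizontal axis; points, edgeR estimates; bars, 1 SE) for the 47 tested genes, grouped by family, with circles for ligands, diamonds for inhibitors and squares for receptor chains. Most estimates lie within 1 log2 unit of 0, and Il24 and Il10 stand farthest to the left with long bars.

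Per length, the highest mean level over the 6 libraries was that of Il1b at 58.0 FPKM, which encodes a ligand of the IL-1 receptor. Il13ra1, a chain that binds IL-13, followed at 50.5 FPKM. Il23a, the p19 subunit of IL-23, had 41.4 FPKM, and Il24, a ligand of the IL-20 receptors, had 36.8 FPKM, of which most came from model replicate 3. Next came Il4ra at 34.9, Il17rc at 25.2, Il6st at 19.9, Il1r1 at 16.8, Il18 at 16.0, Il1r2 at 12.97, Il34 at 12.3 and Il18bp at 12.1 FPKM. At the other end, the 24 untested genes had mean levels under 1 FPKM each.

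One library held several ligands at levels found in no other. Model replicate 3 was the highest of the 6 libraries for 16 of the 47 tested genes (34.0%), where it was highest for 19.3% of all genes tested. Model replicate 1 was highest for 2 of 47 (4.26%), where it was highest for 14.5% of all genes. Il10, Il19, Il24, Il4 and Il13, all ligands, had at least 10 reads in model replicate 3 and a CPM there at least 3-fold above the next library. Both limits were chosen after the values were seen, and Il4, Il13 and Il19 met the read limit in that library alone, so these 5 are a description and support no count. Over all genes with at least 10 reads in a library, 38 of 13760 (0.276%) met the limits in model replicate 3. In the other 5 libraries, 0 of 52 interleukin or receptor genes met them, against 0.0145% to 0.967% of all such genes. The highest share was in model replicate 2, at 133 genes. In RefSeq's gene order, Il24, Il19 and Il10 lie side by side on mouse chromosome 1 with Il20 between Il24 and Il19, and Il4 and Il13 are direct neighbours on chromosome 11.

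Promoter sequences of Il10 and Il24 were missing from the set used. Those of Il4, Il13 and Il19 are shown because their genes shared this pattern. They are the 250 bases before the start of each gene, from the reference strain in build GRCm38.p6, minus strand, read 5′ to 3′ toward the gene. Capitals mark GGAAA or its reverse complement TTTCC, the core that NFAT factors bind. NFAT factors turn on cytokine genes in stimulated T cells and mast cells.
Il4, chr11:53618666-53618915: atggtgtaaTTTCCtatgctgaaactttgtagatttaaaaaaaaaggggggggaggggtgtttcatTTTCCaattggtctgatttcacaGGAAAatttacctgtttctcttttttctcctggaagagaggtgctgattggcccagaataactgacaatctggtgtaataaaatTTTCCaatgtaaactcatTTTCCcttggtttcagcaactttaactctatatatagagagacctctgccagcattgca
Il13, chr11:53634703-53634952: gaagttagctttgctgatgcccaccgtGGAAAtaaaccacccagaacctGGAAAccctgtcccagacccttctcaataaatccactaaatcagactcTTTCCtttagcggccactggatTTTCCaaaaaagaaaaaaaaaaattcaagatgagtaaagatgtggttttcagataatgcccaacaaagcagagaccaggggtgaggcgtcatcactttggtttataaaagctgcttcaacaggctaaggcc
Il19, chr1:130940116-130940365: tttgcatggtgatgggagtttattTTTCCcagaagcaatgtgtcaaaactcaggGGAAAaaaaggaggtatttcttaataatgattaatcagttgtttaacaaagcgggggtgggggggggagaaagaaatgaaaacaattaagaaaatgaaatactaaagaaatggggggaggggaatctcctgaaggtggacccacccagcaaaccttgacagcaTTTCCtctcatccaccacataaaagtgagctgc
The core occurred 5 times for Il4, 4 times for Il13 and 3 times for Il19, on either strand. It is a short motif, found at least 1 time in 55.6% of 32851 RefSeq promoter windows of this length. The number of copies per window was not counted over all windows, so these copy numbers have no background to be set against. The palindromic STAT6 motif occurred 1 time for Il4 and in 5.85% of all windows. GATAA, read on both strands as a GATA motif, occurred 1 time for Il13 and in 22.6% of all windows. None of the 3 windows held the AP-1 letters TGANTCA, which 6.75% of all windows held. These are matches of letters, not sites shown to be bound in these tumors.

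Il24, Il19 and Il10 belong to the IL-10 family, and Il24 carried most of its reads in 1 tumor library. Il24 had 54, 85 and 204 reads in DMDD liposome replicates 1 to 3, against 60, 332 and 3992 reads in model replicates 1 to 3. In CPM this was 3.83, 6.42 and 13.9 in the DMDD liposome libraries, against 4.60, 21.4 and 262 in the model libraries, so that model replicate 3 stood 12.2-fold above the next library and model replicate 1 lay within the DMDD liposome range. The log2 fold change was -3.57 ± 1.34 (SE; edgeR adjusted p = 0.629, unadjusted p = 0.0299), and it was -0.71 without model replicate 3. Il10, a cytokine that restrains macrophages, dendritic cells and T cells, had 3, 19 and 37 reads in DMDD liposome replicates 1 to 3, against 16, 41 and 322 reads in model replicates 1 to 3. Its log2 fold change was -2.58 ± 1.15 (edgeR adjusted p = 0.644) and -0.49 without model replicate 3. Il19, a further ligand of the IL-20 receptors, had 1, 0 and 6 reads in DMDD liposome replicates 1 to 3, against 1, 5 and 84 reads in model replicates 1 to 3, and was too low to be tested. Without model replicate 3, the groups overlapped for each of these 3 genes.

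Their receptors did not share this pattern. Il10ra, the chain that binds IL-10, had 52.8, 38.5 and 48.1 CPM in DMDD liposome replicates 1 to 3, against 39.0, 37.9 and 34.1 CPM in model replicates 1 to 3 (log2 fold change 0.33 ± 0.14). Il10rb, the signaling chain that the IL-10 receptor shares with the IL-22 receptor, had 22.4, 23.0 and 18.6 CPM in DMDD liposome replicates 1 to 3, against 17.7, 15.5 and 17.3 CPM in model replicates 1 to 3. Those groups did not overlap, the log2 fold change was 0.34 ± 0.15 and the edgeR adjusted p was 0.644. Both chains are carried by macrophages, whose 9 markers summed to 3888, 2830 and 3136 CPM in DMDD liposome replicates 1 to 3. In model replicates 1 to 3 the sums were 2767, 2183 and 1489 CPM. Of the 9, 8 had a positive log2 fold change, while Mrc1 stood at -0.24 and was highest in model replicate 3, at 326 CPM. In bulk tumor RNA, more cells of a type and more RNA per cell cannot be told apart, here or in any comparison below, and the part of macrophage content in these receptor values was not tested. Il20rb, a chain of the receptors for IL-19, IL-20 and IL-24, had 6.59, 4.83 and 6.81 CPM in DMDD liposome replicates 1 to 3, against 7.44, 2.77 and 3.55 CPM in model replicates 1 to 3. Il20ra, its partner, had 0.354 to 1.06 CPM in the DMDD liposome libraries and 0.383 to 2.32 CPM in the model libraries. Per length, the mean over all libraries was 0.434 FPKM for Il20ra, below the 1.91 FPKM of Il20rb.

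Il4 and Il13, the ligands of type 2 immunity, were near the limit of detection outside model replicate 3. Il4 had 0, 3 and 1 reads in DMDD liposome replicates 1 to 3, against 0, 2 and 19 reads in model replicates 1 to 3. Il13 had 0, 0 and 5 reads in DMDD liposome replicates 1 to 3, against 0, 3 and 17 reads in model replicates 1 to 3. Il5, which lies beyond Rad50 in the same gene order and drives eosinophil growth, had 0, 2 and 7 reads in DMDD liposome replicates 1 to 3, against 0, 0 and 5 reads in model replicates 1 to 3. Unlike its neighbours, it was highest in DMDD liposome replicate 3.

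The receptor chains for IL-4 and IL-13 were abundant in every library. Il4ra, which both ligands use, had 154, 176 and 168 CPM in DMDD liposome replicates 1 to 3, against 142, 150 and 314 CPM in model replicates 1 to 3. Il13ra1 had 150, 162 and 185 CPM in DMDD liposome replicates 1 to 3, against 181, 164 and 286 CPM in model replicates 1 to 3. Both were highest in model replicate 3. The DMDD liposome values of Il4ra lay above the other 2 model libraries, while those of Il13ra1 overlapped with them. Their log2 fold changes were -0.28 ± 0.29 and -0.35 ± 0.21, and without model replicate 3 they were 0.17 and -0.074. The decoy receptor Il13ra2 had 0, 6 and 5 reads in DMDD liposome replicates 1 to 3, against 12, 8 and 16 reads in model replicates 1 to 3. Those groups did not overlap, but the reads were too few for the test. Of 10 genes that IL-4 and IL-13 induce in macrophages, 8 were tested and 6 had a positive log2 fold change, with a median of 0.76. Arg1, the arginase of such macrophages, had the smallest p of that list (log2 fold change 1.52 ± 0.64, edgeR unadjusted p = 0.0464, adjusted p = 0.644), while Mrc1 stood at -0.24 and Retnla had at most 2 reads in a library.

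**Figure D2:**
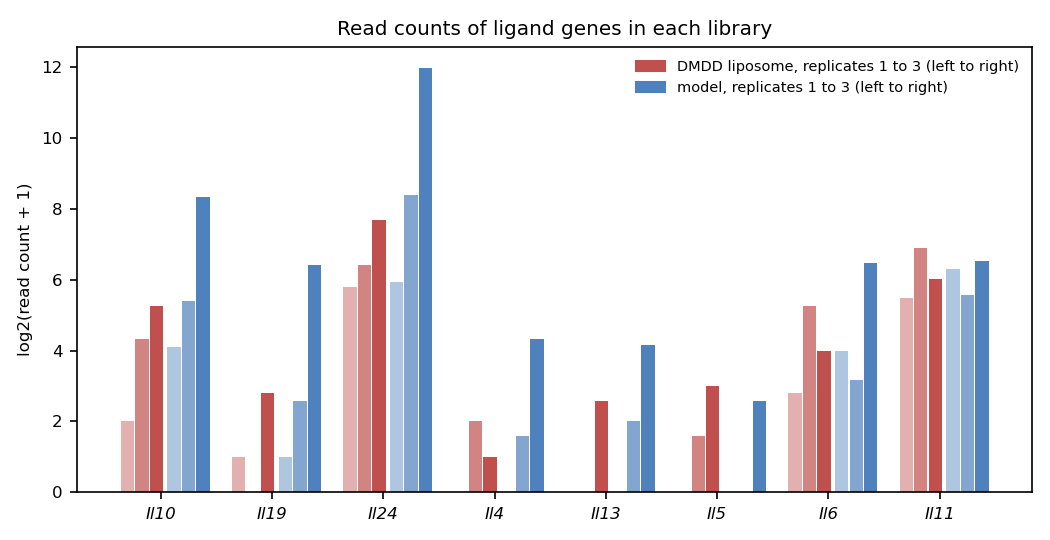
Read counts on a log2(count + 1) scale (vertical axis) of 8 ligand genes in each library, with DMDD liposome replicates 1 to 3 in red and model replicates 1 to 3 in blue, pale to dark within each gene. The last blue bar, model replicate 3, is the tallest for Il10, Il19, Il24, Il4, Il13 and Il6, with 3992 reads for Il24, and not for Il5 or Il11.

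Mast cells are a known source of IL-4, IL-13 and IL-10, and their markers differed between the same libraries in part. The 9 mast cell markers, Mcpt4, Cma1, Cpa3, Tpsb2, Ms4a2, Hdc, Fcer1a, Kit and Tpsab1, summed to 23.2, 33.1 and 44.8 CPM in DMDD liposome replicates 1 to 3, against 42.7, 134 and 121 CPM in model replicates 1 to 3. Of the 7 tested, 6 had a negative log2 fold change, and Kit, which other cells also carry, was positive at 0.59. Model replicate 2 had a marker sum close to that of model replicate 3, with 41 reads of Il10 and 2 of Il4. The part of mast cells in the ligand values was not tested.

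In the IL-1 family, Il33 was the tested ligand with a positive log2 fold change of more than 1. Il33 encodes an alarmin released by damaged epithelium, endothelium and stroma. It had 8.71, 5.29 and 3.68 CPM in DMDD liposome replicates 1 to 3, against 3.14, 1.999 and 3.22 CPM in model replicates 1 to 3. The groups did not overlap, although DMDD liposome replicate 3 and model replicate 3 lay close together. The log2 fold change was 1.08 ± 0.39 (edgeR adjusted p = 0.626, unadjusted p = 0.0254), and it was 0.68 without DMDD liposome replicate 1. Endothelial markers summed to 239, 296 and 209 CPM in DMDD liposome replicates 1 to 3, against 273, 136 and 170 CPM in model replicates 1 to 3. Fibroblast markers summed to 4335, 10610 and 3855 CPM in DMDD liposome replicates 1 to 3, against 3954, 7336 and 4389 CPM in model replicates 1 to 3. All 8 epithelial tumor cell markers had a negative log2 fold change. The part of these cell types in Il33 was not tested.

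The receptor of IL-33 pairs Il1rl1, also called ST2, with the shared accessory chain Il1rap. Il1rl1 had 2.41, 7.86 and 3.34 CPM in DMDD liposome replicates 1 to 3, against 5.29, 7.29 and 16.4 CPM in model replicates 1 to 3. The groups overlapped and model replicate 3 was the highest; the log2 fold change was -1.09 ± 0.56, -0.49 without model replicate 3 and -1.75 without DMDD liposome replicate 2. ST2 is carried by mast cells among others, and the mast cell marker sums above were highest in model replicates 2 and 3. Il1rap, which also completes the receptors for IL-1 and IL-36, had 19.3, 28.6 and 39.8 CPM in DMDD liposome replicates 1 to 3, against 36.8, 47.4 and 89.2 CPM in model replicates 1 to 3. DMDD liposome replicate 3 lay just above model replicate 1, so the groups overlapped by that pair. The log2 fold change of Il1rap was -0.98 ± 0.37 (edgeR adjusted p = 0.629, unadjusted p = 0.0315), and it was -0.54 without model replicate 3.

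Il18rap, the signaling partner in the IL-18 receptor, had a similar order of libraries. It had 22.8, 27.9 and 34.3 CPM in DMDD liposome replicates 1 to 3, against 21.8, 57.5 and 97.2 CPM in model replicates 1 to 3. Model replicate 1 was the lowest of all 6 libraries and model replicates 2 and 3 the highest. Model replicates 2 and 3 were also the highest for the mast cell marker sums above and for the 8 epithelial tumor cell markers. The epithelial markers summed to 3369, 2970 and 3718 CPM in DMDD liposome replicates 1 to 3, against 3250, 5910 and 5658 CPM in model replicates 1 to 3, and the part of either was not tested. Its log2 fold change was -1.06 ± 0.47 (edgeR adjusted p = 0.644), -0.50 without model replicate 3 and -1.45 without model replicate 1. Without model replicate 1, DESeq2 called 3 of the 53 interleukin and receptor genes with an adjusted p (5.66%), against 867 of 13745 genes (6.31%). They were Il18rap (DESeq2 adjusted p = 4.25e-05), Il1rap (DESeq2 adjusted p = 0.0179) and Il24 (DESeq2 adjusted p = 0.0223), all lower in DMDD liposome, while edgeR called 0 of 48 without that library, against 112 of 13159 genes (0.851%). Il18r1, the chain that binds IL-18, had 4.32, 1.66 and 3.48 CPM in DMDD liposome replicates 1 to 3, against 1.61, 2.64 and 3.94 CPM in model replicates 1 to 3, and so did not follow its partner. Il18 itself, which is cut by caspase-1 before release, had 11.7 to 17.9 CPM in the DMDD liposome libraries and 15.6 to 19.2 CPM in the model libraries. Its soluble inhibitor Il18bp had 27.5, 25.8 and 58.7 CPM in DMDD liposome replicates 1 to 3, against 29.1, 25.0 and 53.4 CPM in model replicates 1 to 3, with replicate 3 high in both groups.

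Of the 6 tested IL-1 family receptor chains, counted with Il1rap and without the decoy Il1r2, 5 had a negative log2 fold change (median -0.53). In RefSeq's order, Il1r2, Il1r1, Il1rl2, Il1rl1, Il18r1 and Il18rap follow each other on mouse chromosome 1 with 0 protein-coding genes between them. This run holds Il1r2 and not Il1rap, so it is not the same 6 genes. Neighbours in it differed. Il1r2, the decoy receptor for IL-1, had 16.4, 20.7 and 18.9 CPM in DMDD liposome replicates 1 to 3, against 15.3, 19.9 and 19.4 CPM in model replicates 1 to 3. Il1r1, the signaling receptor for IL-1, had 126, 81.7 and 91.2 CPM in DMDD liposome replicates 1 to 3, against 86.9, 120 and 110 CPM in model replicates 1 to 3. Il1rl2, the receptor for the IL-36 ligands, had 11.0 to 12.8 CPM in the DMDD liposome libraries and 8.66 to 17.4 CPM in the model libraries, highest in model replicate 2. The log2 fold changes of these 3 were 0.03, -0.08 and -0.02, each smaller than its SE.

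**Figure D3:**
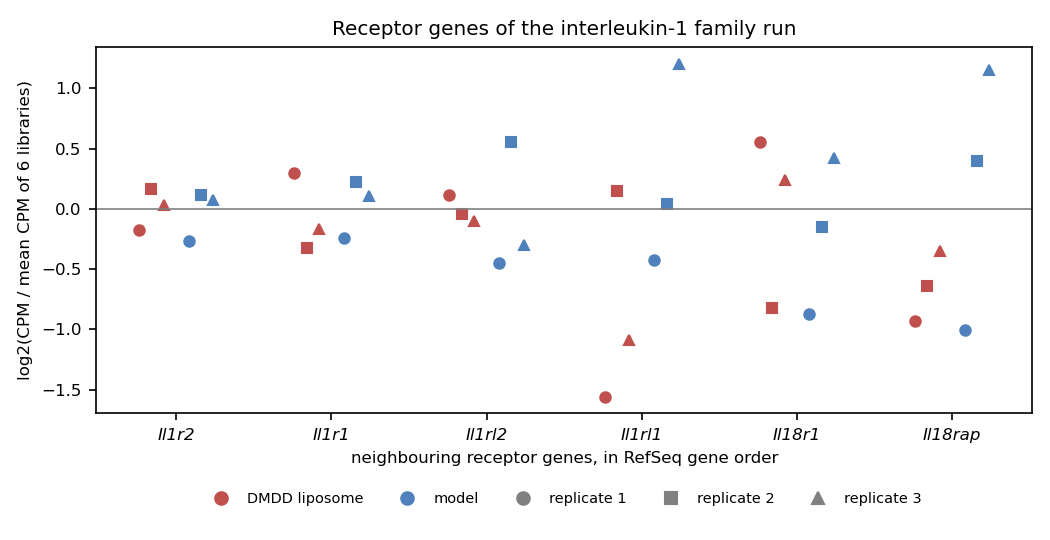
CPM of 6 neighbouring receptor genes of the IL-1 family as log2 of the ratio to the mean of the 6 libraries (vertical axis), in RefSeq gene order (horizontal axis); red points are DMDD liposome and blue points model libraries, with the marker shape giving the replicate. Il1r2 varies little, whereas Il1rl1 and Il18rap are spread widely and are highest in model replicate 3.

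Il1b, the ligand with the highest per-length level, had 56.2, 70.9 and 69.8 CPM in DMDD liposome replicates 1 to 3, against 87.4, 68.0 and 121 CPM in model replicates 1 to 3. Model replicate 2 lay inside the DMDD liposome range. The log2 fold change was -0.49 ± 0.21 (edgeR adjusted p = 0.644) and -0.26 without model replicate 3. Neutrophils and macrophages are the usual sources of IL-1 beta. The 9 neutrophil markers summed to 144, 199 and 117 CPM in DMDD liposome replicates 1 to 3, against 266, 206 and 231 CPM in model replicates 1 to 3, without overlap. S100a8 and S100a9 made up most of that sum, and 3 of the 8 tested markers, Mmp8, Ngp and Clec4d, had positive log2 fold changes. The macrophage marker sum, given above with Il10ra, was highest in DMDD liposome replicate 1 and lowest in model replicate 3, where Il1b was highest. Mrc1, of the same list, went the other way and was highest in model replicate 3. The part of either cell type in Il1b was not tested. Il1a, its neighbour, had 6.87, 19.9 and 20.4 CPM in DMDD liposome replicates 1 to 3, against 15.3, 8.90 and 20.9 CPM in model replicates 1 to 3. Il1rn, the receptor antagonist that blocks both, had 21.9, 23.7 and 37.1 CPM in DMDD liposome replicates 1 to 3, against 25.6, 16.0 and 24.9 CPM in model replicates 1 to 3. For Il1a and Il1rn the log2 fold changes were 0.06 ± 0.45 and 0.31 ± 0.26. Il1rn stood at 0.040 without DMDD liposome replicate 3 and at 0.12 without model replicate 2.

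The remaining IL-1 family genes are those of epithelium, with Il1f5 encoding the antagonist of the IL-36 receptor. Il1f9, which encodes IL-36 gamma, had 11, 18 and 9 reads in DMDD liposome replicates 1 to 3, against 32, 22 and 21 reads in model replicates 1 to 3 (log2 fold change -0.93 ± 0.46, edgeR adjusted p = 0.666, and -0.61 without model replicate 1). In CPM its groups did not overlap, but 1.36 CPM in DMDD liposome replicate 2 lay close to 1.38 CPM in model replicate 3. Il1f5 had 7 reads, Il1f8 3 reads and Il1f10 1 read in model replicate 2, and all 3 had 0 reads in the other 5 libraries, where 0 reads allow up to 0.197 to 0.230 CPM. Model replicate 2 was the library with the epidermal markers: Krt1 had 38.1 CPM there and 0 elsewhere. The part of epidermal tissue in the values of these 3 genes was not tested.

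**Figure D4:**
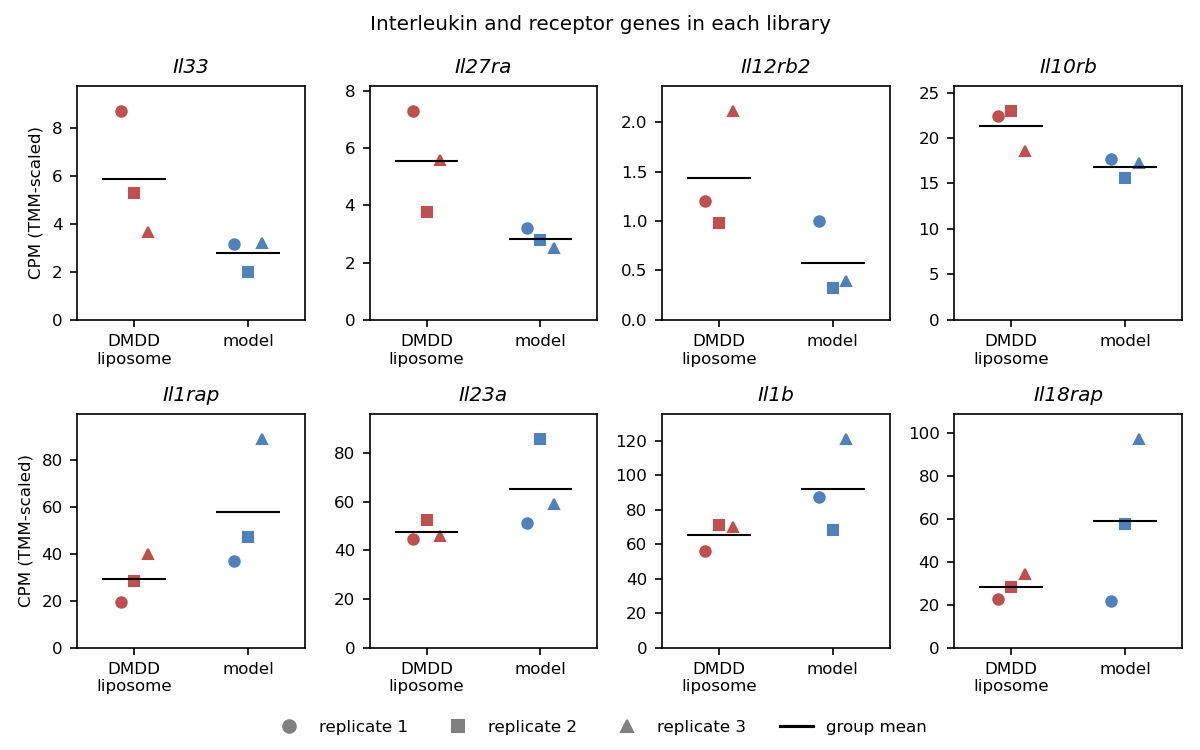
CPM (vertical axis, TMM-scaled, each panel starting at 0) of 8 genes in the 3 DMDD liposome libraries (red, left) and the 3 model libraries (blue, right); marker shape gives the replicate and the black line the group mean. The groups do not overlap for Il33, Il27ra and Il10rb, whereas Il12rb2, Il1rap, Il23a, Il1b and Il18rap overlap in at least 1 library.

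In the IL-12 family, receptor chains and the p19 subunit differed in direction. Il27ra, the specific chain of the IL-27 receptor, had 7.29, 3.78 and 5.59 CPM in DMDD liposome replicates 1 to 3, against 3.22, 2.77 and 2.50 CPM in model replicates 1 to 3. The groups did not overlap, with a log2 fold change of 0.97 ± 0.32 (edgeR adjusted p = 0.626, unadjusted p = 0.0167). Il27, the p28 subunit of its ligand, had 14, 12 and 17 reads in DMDD liposome replicates 1 to 3, against 8, 12 and 9 reads in model replicates 1 to 3 (log2 fold change 0.62 ± 0.39). In CPM those groups did not overlap either, at 0.906 to 1.16 in DMDD liposome libraries against 0.591 to 0.774 in model libraries. The partner subunit gene Ebi3 had a log2 fold change of 0.15 ± 0.40. Ebi3 had 5.31, 4.53 and 5.04 CPM in DMDD liposome replicates 1 to 3, against 7.13, 4.06 and 2.30 CPM in model replicates 1 to 3, with overlap, so of the ligand the p28 subunit alone was higher in all 3 DMDD liposome libraries.

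Il12rb2, the signaling chain of the IL-12 receptor, which T cells and NK cells carry, had 17, 13 and 31 reads in DMDD liposome replicates 1 to 3, against 13, 5 and 6 reads in model replicates 1 to 3. In CPM, DMDD liposome replicate 2 at 0.982 lay just under model replicate 1 at 0.997. Its log2 fold change was 1.34 ± 0.57 (edgeR adjusted p = 0.644, unadjusted p = 0.0481). It was 1.98 without model replicate 1 and 0.95 without DMDD liposome replicate 3. The NK cell markers summed to 49.4, 31.4 and 103 CPM in DMDD liposome replicates 1 to 3, against 44.3, 30.0 and 51.4 CPM in model replicates 1 to 3, with DMDD liposome replicate 3 highest as for Il12rb2. Gzmb and Prf1, which T cells also carry, made up most of that sum, at 69.2 and 23.9 CPM in DMDD liposome replicate 3. Ncr1, the NK cell receptor, had 0.637, 0.907 and 0.681 CPM in DMDD liposome replicates 1 to 3, against 0.460, 1.29 and 0.854 CPM in model replicates 1 to 3, and did not follow Il12rb2. The part of NK or T cells was not tested.

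Il23a had 44.7, 52.3 and 45.7 CPM in DMDD liposome replicates 1 to 3, against 51.4, 85.8 and 58.9 CPM in model replicates 1 to 3. DMDD liposome replicate 2 and model replicate 1 overlapped, and the highest was model replicate 2, the library with the epidermal markers, whose part was not tested. Il23a had a log2 fold change of -0.46 ± 0.20 (edgeR adjusted p = 0.644, unadjusted p = 0.0482), and it was -0.22 without model replicate 2. IL-23 needs p19 together with p40, the product of Il12b, and binds a receptor that includes Il23r. Il12b had 0, 2 and 4 reads in DMDD liposome replicates 1 to 3, against 7, 8 and 9 reads in model replicates 1 to 3, without overlap but too low to be tested. Il23r had 2 reads and Il12a, the p35 subunit of IL-12, 7 reads over all 6 libraries. Per length, the mean level over all libraries was 41.4 FPKM for Il23a, against 0.174 FPKM for Il12b and 0.00932 FPKM for Il23r.

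In the gp130 family, the mean levels over all libraries were 19.9 FPKM for Il6st and 9.74 FPKM for Il6ra, above the 0.791 FPKM of Il6 and the 2.58 FPKM of Il11. Il6st, which encodes gp130, the signaling chain shared by IL-6 and IL-11, had 216, 211 and 216 CPM in DMDD liposome replicates 1 to 3, against 210, 164 and 294 CPM in model replicates 1 to 3. The DMDD liposome libraries lay within the model range. Il6ra, the chain that binds IL-6, had 80.1, 73.6 and 90.8 CPM in DMDD liposome replicates 1 to 3, against 70.4, 98.2 and 92.5 CPM in model replicates 1 to 3. Il6, a ligand of acute inflammation, had 6, 37 and 15 reads in DMDD liposome replicates 1 to 3, against 15, 8 and 88 reads in model replicates 1 to 3. Its log2 fold change was -0.82 ± 0.96 and turned to 0.75 without model replicate 3. Il11, which stromal and tumor cells make, had 44, 118 and 64 reads in DMDD liposome replicates 1 to 3, against 78, 46 and 91 reads in model replicates 1 to 3. Il11ra1, its binding chain, had 17.7 to 28.9 CPM in the DMDD liposome libraries and 17.0 to 22.6 CPM in the model libraries, and is uncertain because near-identical copies of this gene exist in the mouse.

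Among the receptors of the common gamma chain family, carried mostly by lymphocytes, Il2rb had the largest log2 fold change. Il2rb had 30.5, 14.7 and 41.5 CPM in DMDD liposome replicates 1 to 3, against 17.0, 14.8 and 25.4 CPM in model replicates 1 to 3 (log2 fold change 0.60 ± 0.37, and 0.25 without DMDD liposome replicate 3). Il2rg, the common gamma chain itself, had 16.7, 7.40 and 13.6 CPM in DMDD liposome replicates 1 to 3, against 11.0, 7.74 and 13.9 CPM in model replicates 1 to 3. Both were low in DMDD liposome replicate 2, as was Cd3e, a chain of the T cell receptor complex, at 7.01, 2.27 and 7.63 CPM in DMDD liposome replicates 1 to 3, against 2.38, 2.06 and 4.60 CPM in model replicates 1 to 3. Over all 9 T cell markers the sums were 179, 211 and 166 CPM in DMDD liposome replicates 1 to 3. In model replicates 1 to 3 they were 150, 171 and 145 CPM. The highest sum was thus in DMDD liposome replicate 2, where Thy1, which other cells also carry, had 190 CPM. Of the 9, 7 had a positive log2 fold change, and their part in the receptor values was not tested.

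Il2ra, the high-affinity chain for IL-2, had 2.34, 3.32 and 5.45 CPM in DMDD liposome replicates 1 to 3, against 3.07, 3.93 and 7.03 CPM in model replicates 1 to 3. Il15ra, which presents IL-15 to neighbouring cells, had 16.6, 15.6 and 21.9 CPM in DMDD liposome replicates 1 to 3, against 15.6, 21.4 and 29.7 CPM in model replicates 1 to 3. Both were highest in model replicate 3, and the groups overlapped. Il15, its ligand, had 7.08, 6.34 and 9.88 CPM in DMDD liposome replicates 1 to 3, against 6.29, 11.3 and 11.8 CPM in model replicates 1 to 3. Il7, a survival factor for T cells, had 2.34 to 9.81 CPM in the DMDD liposome libraries and 3.48 to 8.05 CPM in the model libraries, and its receptor chain Il7r had 7.22 to 9.54 CPM in DMDD liposome and 3.42 to 8.97 CPM in model libraries. Il21r, the receptor of IL-21, had 10.9 to 13.4 CPM in the DMDD liposome libraries and 7.54 to 11.3 CPM in the model libraries. Il2 had 3 reads over all 6 libraries, so its receptor was measured where the ligand was at the limit of detection. The log2 fold changes of these 6 tested genes ran from -0.34 to 0.39, and none had an unadjusted p under 0.05.

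Of the 5 IL-17 receptor chains, 4 were tested, while the classical ligands were near the limit of detection. Il17ra, the chain common to these receptors, had 67.2, 82.7 and 75.0 CPM in DMDD liposome replicates 1 to 3, against 76.8, 73.2 and 83.1 CPM in model replicates 1 to 3. Il17rc, its partner for IL-17A and IL-17F, had 47.2, 46.8 and 64.3 CPM in DMDD liposome replicates 1 to 3, against 44.5, 63.6 and 82.0 CPM in model replicates 1 to 3. Il17a had 1 read and Il17f 6 reads over all 6 libraries. Il17rd had 22.0, 7.63 and 6.95 CPM in DMDD liposome replicates 1 to 3, against 8.59, 9.22 and 7.29 CPM in model replicates 1 to 3, so that DMDD liposome replicate 1 stood apart. Its log2 fold change of 0.54 ± 0.44 turned to -0.20 without that library in edgeR. Il17re, which binds IL-17C, and the ligand Il17d had log2 fold changes of -0.08 ± 0.28 and -0.32 ± 0.35. Il17rb, the receptor of IL-25, had 0, 4 and 4 reads in DMDD liposome replicates 1 to 3, against 5, 13 and 17 reads in model replicates 1 to 3, without overlap and too low to be tested.

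Outside these families, Il34, a second ligand of the receptor Csf1r on macrophages, had 23.5, 15.6 and 21.8 CPM in DMDD liposome replicates 1 to 3, against 26.6, 27.1 and 20.5 CPM in model replicates 1 to 3. Il16, a ligand of CD4, had 9.42, 5.36 and 4.97 CPM in DMDD liposome replicates 1 to 3, against 5.06, 5.16 and 4.14 CPM in model replicates 1 to 3. Il3ra, the chain that binds IL-3, had 9.14 to 14.9 CPM in the DMDD liposome libraries and 8.19 to 12.9 CPM in the model libraries, and Il3 had 7 reads in all. None of these had an unadjusted p under 0.05. Counted over all 6 libraries, the remaining untested genes were at the limit of detection: Il17c had 11 reads, Il22ra1 13, Il22ra2 10, Il31ra 8, Il25 7, Il4i1 3, Il9r 2 and Il9 1.

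Pathway genes were described by lists chosen for this family. Among 11 JAK kinases and STAT factors, 6 had a positive log2 fold change, the median was 0.01 and 0 had an unadjusted p under 0.05. Among 13 feedback inhibitors of cytokine signaling, 9 were negative with a median of -0.03 and 0 had such a p. Socs3, which IL-6 and IL-10 induce, had 113, 152 and 150 CPM in DMDD liposome replicates 1 to 3, against 156, 127 and 288 CPM in model replicates 1 to 3. It was highest in model replicate 3, as were Socs1 at 66.5 CPM, Socs5 at 144.6 CPM and Cish at 84.3 CPM, whereas Socs2, Socs4, Socs6 and Socs7 were highest in other libraries. Any relation of these genes to the ligands was not tested. Among 13 adaptors and kinases of the IL-1 and Toll pathway, 8 were negative with a median of -0.05, and Tollip, an inhibitor of that pathway, had an unadjusted p of 0.0373 in edgeR (log2 fold change -0.25). Of 5 genes of IL-17 signaling, 3 were negative, with a median of -0.24.

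Among 12 related cytokines and receptors outside the naming pattern, 8 were positive, with a median of 0.14. Csf2rb, the signaling chain for IL-3, IL-5 and GM-CSF, had 116, 105 and 114 CPM in DMDD liposome replicates 1 to 3, against 85.1, 84.1 and 94.7 CPM in model replicates 1 to 3. The groups did not overlap (log2 fold change 0.34 ± 0.10, edgeR adjusted p = 0.626, unadjusted p = 0.00856), and its near-identical copy Csf2rb2 stood at 0.25 ± 0.17, so reads may be split between them. Tslp, an epithelial cytokine that promotes type 2 immunity, had 56.7, 66.7 and 77.5 CPM in DMDD liposome replicates 1 to 3, against 61.3, 65.3 and 170 CPM in model replicates 1 to 3. Like Il4 and Il13, it was highest in model replicate 3. Of 10 tested targets of IL-6 and STAT3, 7 were negative, with a median of -0.23. Hp, which encodes haptoglobin, had the smallest p of that list (log2 fold change 1.80 ± 0.75, edgeR unadjusted p = 0.0455, adjusted p = 0.644). Its groups overlapped, with 46.5, 126 and 11.9 CPM in DMDD liposome replicates 1 to 3. Model replicates 1 to 3 had 10.35, 26.25 and 16.0 CPM. In all 7 pathway lists, 0 genes passed the adjusted threshold.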

How the data were processed

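Per the labels' protocols, Trizol was used for whole-tumor RNA and NEBNext Ultra for library preparation. The authors deposited 1 table with raw read counts per gene, a normalized signal, FPKM, a log2 fold change of model over DMDD liposome, and p-values with adjusted p-values. The submitters' processing notes name DESeq2 and build mm9; no aligner, counter or strand setting is given in the sources used here. From the deposited counts, genes were kept by edgeR's filterByExpr (10 reads in enough libraries, 15 in all), which left 12891 of 16763 genes. They were scaled by TMM and tested with edgeR 4.0.16 (quasi-likelihood, 2-sided, R 4.3.3), with Benjamini-Hochberg adjustment over all genes. Alternatives used DESeq2 1.42.0 and limma 3.58.1. CPM are TMM-scaled; levels between genes are compared by the authors' FPKM. Log2 fold changes are DMDD liposome over model unless the authors' table is named. On simulated counts of 12891 genes, edgeR recovered 47% of the 2-fold and 89% of the 4-fold changes, with 5 false calls. No simulated library stood apart in a set of genes, as some of these libraries did, so recovery in these tumors may be lower. Named genes had an unadjusted edgeR p under 0.05, were among the 12 highest in mean FPKM, or paired a ligand with its receptor; others are given by range, count or library pattern. Members and lists were chosen with earlier results of these data known. Promoters and gene order came from RefSeq.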

Additional observations from a re-analysis of the deposited data

How the results depend on the processing

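With edgeR, 0 genes passed in the full fit, with DESeq2's size factors and without the filter; limma-voom with quality weights also called 0, and DESeq2 59. Leaving out 1 library at a time gave 0 to 867 genes and 0 to 3 interleukin or receptor genes; without model replicate 1, edgeR called 112 and DESeq2 867, and the DESeq2 fits without 1 library were added after the data were seen. The labels number the replicates 1 to 3 in both groups without saying that a number pairs libraries. Deviations of same-numbered libraries correlated at 0.0876, 0.114 and 0.121, and each library correlated best with its own number, a hint from the data and not from the design. A fit with the replicate number as a block called 0 genes, and 0 of 47 interleukin and receptor genes (9 at an unadjusted p under 0.05, against 6 without the block, where all 12891 genes gave 1111 with the block and 986 without it).

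Of 799 recomputed log2 fold changes, 736 kept their sign, and 30 of 47 genes never turned. With the replicate block, Il1rl2 stood at 0.051 and Il7 at -0.11; Il7 was -0.00097 without the filter. With voom weights, Il11 stood at -0.19, Il17re at 0.051, Il1a at -0.27, Il1r2 at -0.052 and Il1rl2 at 0.055. Without 1 library, these turned over the ranges given: Il11 -0.42 to 0.42, Il17d -0.60 to 0.052, Il17ra -0.14 to 0.021, Il17rd -0.21 to 0.82, Il17re -0.25 to 0.15, Il18bp -0.44 to 0.46, Il18r1 -0.096 to 0.55, Il1a -0.21 to 0.42, Il1r1 -0.30 to 0.034, Il1r2 -0.085 to 0.12, Il1rl2 -0.20 to 0.36, Il2ra -0.74 to 0.069, Il2rg -0.056 to 0.47, Il4ra -0.49 to 0.17, Il6 -1.79 to 0.75, Il6st -0.25 to 0.18 and Il7 -0.52 to 0.39. The causes were not tested. With 3 libraries a group, genes that did not reach about 10 reads in at least 3 libraries could not be tested.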
